A study of Mus musculus with 6 samples.

Results

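Messenger RNAs of 10 secreted or membrane proteins of fetal liver and yolk sac were followed in 6 mouse teratomas. The genes were Afp, Alb, Ttr, Rbp4, Fga, Fgb, Fgg, Ahsg, Trf and Amn, and they were chosen by name, as the array's gene names give them. They account for 10 of 37001 genes and for 14 of 56583 probes on the array, and 9 of the 10 passed the filter for testing, among 22946 genes that did. Teratomas are growths in which pluripotent cells differentiate into tissues of all germ layers. Here they arose from mouse embryonic stem cells placed under the skin of the flank of BALB/c Nude mice, a strain that lacks a thymus and so most T cells but keeps other immune cells and its own liver. Mice were randomised to 2 groups of 3. The control tumours received a miRNA negative control, and the others a miR-124a mimic, a synthetic copy of a microRNA known for its abundance in neurons. Both groups had the same delivery: the RNA was complexed with Atelogen QG at 15 µg per 100 µL and injected into the tumour every 3 days until day 28, from about day 10, when the tumours had reached 100 mm3. Each tumour was cut into 2 pieces, and 1 of them supplied the RNA. The sources used here do not give the strain of the stem cells.

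These genes belong to a secretory programme that the visceral endoderm of the yolk sac and the hepatocytes of the fetal liver share. Both tissues load the circulation of the embryo with carrier and clotting proteins before the adult liver takes over, and the transcription factors HNF4A, HNF1 and FOXA act on many of these genes in both. Several members are also made outside the liver: Ttr is the hallmark transcript of the choroid plexus, Trf is made by oligodendrocytes, and Rbp4 by fat cells. In bulk tumours, fewer cells of a type and less RNA per cell cannot be told apart.

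Promoters of 3 members are shown because they hold the same motif although their genes were measured at unlike detection: Afp above background in all 6 tumours, Alb in 4 and Fga in 0. Each is the 250 bases before the start of transcription, taken from RefSeq on GRCm38.p6 and read on the plus strand, which is the strand of all 3 genes. The Afp promoter lies at chr5:90490464-90490713, the Alb promoter at chr5:90460620-90460869 and the Fga promoter at chr3:83025903-83026152. Capitals mark the match to the HNF1 motif GTTAATNAT, which in Fga lies on the minus strand and so reads as its reverse complement.
Afp: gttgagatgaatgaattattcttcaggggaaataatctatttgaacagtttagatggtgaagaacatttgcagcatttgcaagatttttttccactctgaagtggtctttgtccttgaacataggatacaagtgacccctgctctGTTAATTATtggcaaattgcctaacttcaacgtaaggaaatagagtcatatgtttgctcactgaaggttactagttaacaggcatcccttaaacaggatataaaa
Alb: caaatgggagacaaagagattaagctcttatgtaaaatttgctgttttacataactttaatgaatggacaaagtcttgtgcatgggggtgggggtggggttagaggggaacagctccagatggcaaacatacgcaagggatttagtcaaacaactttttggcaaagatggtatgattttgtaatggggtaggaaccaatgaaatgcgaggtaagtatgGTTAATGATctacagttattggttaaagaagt
Fga: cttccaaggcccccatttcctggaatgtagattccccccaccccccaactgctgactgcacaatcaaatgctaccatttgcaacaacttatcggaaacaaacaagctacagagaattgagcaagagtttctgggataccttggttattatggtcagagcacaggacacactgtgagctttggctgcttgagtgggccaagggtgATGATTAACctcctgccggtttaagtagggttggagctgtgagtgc

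RefSeq windows from 250 bases before to 50 after the start were found for 8 of the 10 members, Rbp4 with 2 of them. The HNF1 motif, searched on both strands, was present in 263 of 32851 windows of all genes (0.801%) and in 3 of these 8 members. Its match spans bases 105 to 97 before the start in Afp, 32 to 24 in Alb and 46 to 38 in Fga. A FOXA motif, TGTTTGC, stood in Afp, Alb and Ahsg and in 5.07% of all windows, and its variant TGTTTAC in Rbp4 and in 3.65%. The HNF4 motif CAAAGTCCA (0.475% of windows) and the C/EBP motif TTGCAAT (2.22%) had no match in these windows. No HNF1 match overlapped a FOXA match. A match describes the letters of a window and is neither a binding site nor a cause.

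Each array gave 1 colour, and between 63.4% and 65.9% of the probes of an array (35867 to 37286) exceeded background clearly, with 0 saturated spots. Levels are given as scaled intensity, the processed signal divided by the array's 75th percentile and set so that this percentile is 100. The dimmest signal called well above background was 2.09 to 2.54 on this scale. Probes differ in brightness, so levels are compared between tumours for 1 probe, never between genes. Differences are log2 fold changes, miR-124a minus control, with the standard error (SE) and 95% interval from limma. The 3 control arrays lay in row 1 of the slide and the 3 miR-124a arrays in row 2, so slide row and treatment cannot be told apart. The controls were at columns 1, 2 and 4 and the miR-124a arrays at columns 1, 2 and 3, so control 3 alone was in column 4.

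None of the 9 tested members passed limma's adjusted p of 0.05, against 3.23% of all tested genes (2.75% lower and 0.488% higher with miR-124a). At an unadjusted p under 0.05 there were 2, Alb and Fgg, against 27.3% of all genes. In 3 members, Alb, Fgb and Fgg, every miR-124a tumour lay below every control tumour, against 20.6% of all genes that were lower without overlap and 35.6% without overlap in either direction. These 3 entered the test through the control group, where all 3 tumours were above background, so a filter that favours their direction let them in, and nothing is read from their count. The median difference of the 9 was -1.10, beside -0.002 for all tested genes, and -0.0702 over the 6 members above background on all 6 arrays. The spread between tumours was wide: the control tumours' SD of log2 signal stood between percentiles 97.99 and 99.7 of all tested genes for Afp, Alb, Ahsg, Fgb and Fgg.

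**Figure D1:**
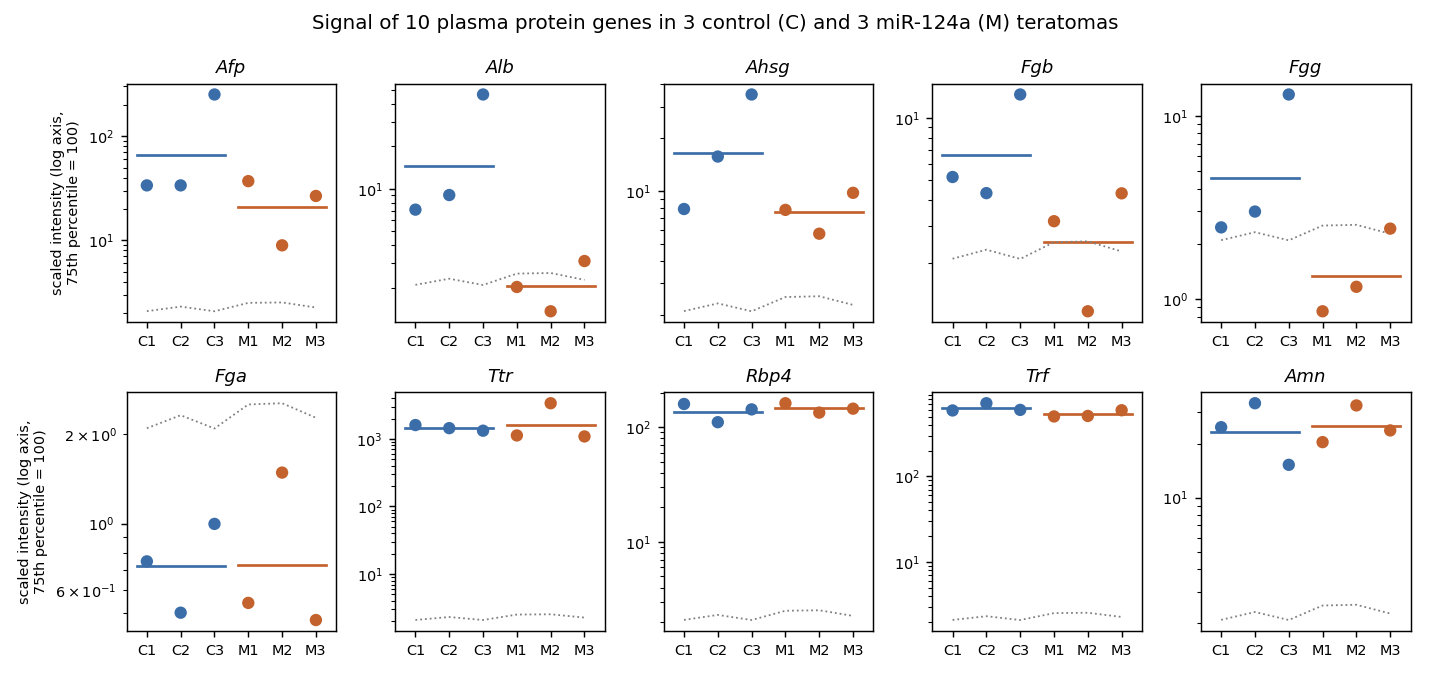
Scaled intensity (log axis, the array's 75th percentile set to 100) of the 10 genes in control tumours 1 to 3 (C, blue) and miR-124a tumours 1 to 3 (M, orange). Points are tumours, bars are the geometric means of each group, and the dotted line is the dimmest signal called well above background on each array. Control 3 is the highest point for Afp, Alb, Ahsg, Fgb and Fgg, Ttr is highest in miR-124a 2, and every point of Fga lies under the dotted line.

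Afp encodes alpha-fetoprotein, the main plasma protein of the embryo and a serum marker of yolk sac and liver tumours. Its probe (mm9, chr5:90937781-90937840, in the transcribed sequence) gave a scaled intensity of 33.7 in control 1, 33.7 in control 2 and 251 in control 3. In the miR-124a tumours it gave 37.0, 8.96 and 26.7. The groups overlapped: miR-124a 1 lay above 2 of the controls, control 3 was far above every other tumour and miR-124a 2 far below. The difference was -1.67 ± 0.92 (SE, n = 3 per group; 95% interval -3.89 to 0.55) with an adjusted p of 0.285 in limma. Without control 3 it was -0.70, and without both control 3 and miR-124a 2 it was -0.10.

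Alb encodes albumin, the main adult plasma protein and a neighbour of Afp on chromosome 5. Its brighter probe (mm9, chr5:90905550-90905609) read 7.13, 9.05 and 46.7 in control tumours 1 to 3. It read 2.02, 1.36 and 3.08 in miR-124a tumours 1 to 3, where only miR-124a 3 was well above background. All 3 treated tumours lay below all 3 controls, with control 3 again the highest. The difference was -2.83 ± 0.74 (SE; 95% interval -4.61 to -1.04), the largest of the 9 in size, and limma's adjusted p was 0.0836, with 0.0560 to 0.233 over the 15 alternatives that could test it. The other Alb probe (chr5:90901598-90901657) read 3.24 to 26.5 in controls and was not above background in any treated tumour, so its fold is a bound: at least 2.72-fold lower with miR-124a, and at least 1.38-fold lower without control 3. Without control 3 the difference was -1.98 (adjusted p 0.0661), and without both control 3 and miR-124a 2 it was -1.69 (adjusted p 0.138). With normexp background correction and quantile scaling, which lifts dim signals by a fixed offset, it was -0.83.

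The albumin family continues along the same chromosome with Afm (afamin, a vitamin E carrier) and Gc (the vitamin D carrier). Afm stood near the detection limit, at 1.70, 2.30 and 2.89 in controls and 0.519 to 0.590 in treated tumours, with 1 of 6 arrays above background, so it was not tested. Gc differed by -0.40 (adjusted p 0.486), from 3.17 to 7.32 in controls and 2.88 to 4.70 in treated tumours, and its groups overlapped.

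Ahsg encodes fetuin-A, a plasma protein of the fetus that keeps calcium phosphate in solution. It read 7.90, 15.6 and 35.1 in controls 1 to 3 and 7.81, 5.73 and 9.76 in miR-124a tumours 1 to 3 (mm9, chr16:22899415-22899474). Control 3 was the highest and the groups overlapped through miR-124a 3, which lay above control 1. The difference was -1.10 ± 0.53 (SE; 95% interval -2.39 to 0.18; limma adjusted p 0.234), and -0.55 without control 3.

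Fibrinogen, which thrombin turns into the fibrin of clots, is built from alpha, beta and gamma chains encoded by the neighbouring genes Fga, Fgb and Fgg. The probes for 2 of the chains are printed because they differed in detection, with the Fgg probe between them, above background on 3 of 6 arrays. Probes differ in brightness, so this is not a comparison of the genes' levels. Both Fga probes (mm9, chr3:82835678-82835737 and chr3:82837260-82837319, plus strand) were not well above background on any of the 6 arrays. The Fgb probe (chr3:82846334-82846393, minus strand) was above it on 5. All are 60 bases long, as the array design gives them, with no base in capitals.
Fga probe A_51_P193813: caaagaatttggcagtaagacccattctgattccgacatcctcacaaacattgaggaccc
Fga probe A_55_P2123381: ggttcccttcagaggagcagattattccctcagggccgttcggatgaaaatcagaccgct
Fgb probe A_51_P428483: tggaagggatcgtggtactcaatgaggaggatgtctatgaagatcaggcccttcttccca

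Fga read at most 0.941 on the first of these probes and at most 1.48 on the other, in miR-124a 2, all below the dimmest signal called above background. Fgb, the beta chain, read 5.19, 4.33 and 13 in controls 1 to 3 and 3.17, 1.17 and 4.32 in miR-124a tumours 1 to 3. The groups were separate by a margin of 4.33 in control 2 against 4.32 in miR-124a 3. The difference was -1.40 ± 0.60 (SE; 95% interval -2.86 to 0.07; limma adjusted p 0.198), and without miR-124a 2 it was -0.84. Leaving out control 3 gave -0.91, and leaving out both gave -0.36. With normexp background correction and quantile scaling the Fgb difference was -0.27.

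Fgg, the gamma chain (mm9, chr3:82818825-82818884), read 2.46, 3.00 and 13.1 in controls 1 to 3. It read 0.855, 1.16 and 2.42 in miR-124a tumours 1 to 3 and was not well above background in any of them. The groups were separate, again by little, control 1 at 2.46 against miR-124a 3 at 2.42. Set against the detection limit of the treated arrays, Fgg was at least 1.84-fold lower with miR-124a, and at least 1.09-fold lower without control 3. This bound is a ratio of means and does not allow for the spread between tumours. The fitted difference was -1.77 ± 0.71 (SE; 95% interval -3.49 to -0.06; limma adjusted p 0.171), and -1.02 without control 3. With normexp background correction and quantile scaling it was -0.28.

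**Figure D2:**
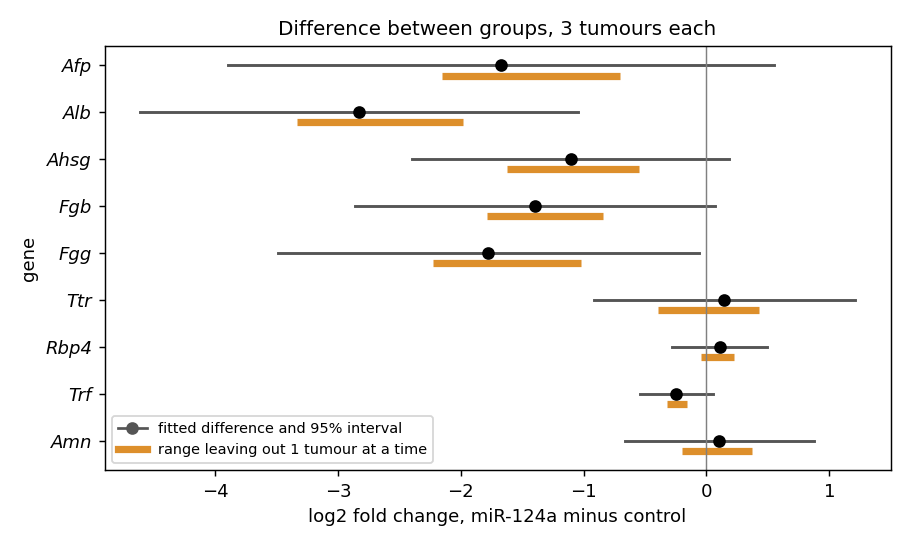
Log2 fold change (miR-124a minus control) of the 9 tested genes, 3 tumours per group. Black points and grey lines are the limma estimate and its 95% interval, and orange bars the range of estimates when 1 tumour at a time was left out. Alb and Fgg have intervals below 0, the orange bars of Ttr, Rbp4 and Amn cross 0, and no adjusted p was under 0.05.

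Ttr encodes transthyretin, which carries thyroxine and, through RBP4, retinol, in blood and cerebrospinal fluid. Its brighter probe read 1604, 1444 and 1323 in controls 1 to 3 and 1126, 3377 and 1088 in miR-124a tumours 1 to 3. The treated tumours thus enclosed the controls, with miR-124a 2 above all others and the other two below. The difference was 0.14 ± 0.44 (SE; 95% interval -0.92 to 1.21; limma adjusted p 0.854), and it turned to -0.39 without miR-124a 2. The other Ttr probe read highest in the same tumour, at 85.5 against 24.5 to 43.0 elsewhere, and gave a difference of 0.13. The SD of Ttr stood at percentile 37.9 of all tested genes among controls and at percentile 98.9 among treated tumours.

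Rbp4, the plasma carrier of retinol, was among the steadiest members (mm9, chr19:38191129-38191188). It read 159, 110.5 and 143 in controls 1 to 3 and 162, 134 and 145 in miR-124a tumours 1 to 3, with overlapping groups and a range of 1.46-fold over all 6. The difference was 0.11 ± 0.16 (SE; 95% interval -0.28 to 0.49; limma adjusted p 0.693), and -0.04 without control 2.

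Trf encodes transferrin, the iron carrier of plasma (mm9, chr9:103111207-103111266). It read 592, 720 and 601 in controls 1 to 3 and 504, 511 and 596 in miR-124a tumours 1 to 3. The groups overlapped by a small margin, miR-124a 3 against control 1. The difference was -0.25 ± 0.12 (SE; 95% interval -0.54 to 0.05; limma adjusted p 0.247), and the other Trf probe gave -0.19.

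Amn encodes amnionless, a membrane protein of visceral endoderm, kidney and intestine that brings the endocytic receptor cubilin to the cell surface. It is the member that is not secreted. It read 24.7, 33.5 and 15.2 in controls 1 to 3 and 20.4, 32.6 and 23.7 in miR-124a tumours 1 to 3. The groups overlapped, and control 3, the highest control for Afp, Alb, Ahsg, Fgb and Fgg, was here the lowest tumour. The difference was 0.11 ± 0.32 (SE; 95% interval -0.66 to 0.88; limma adjusted p 0.851), and its sign turned when control 3 (-0.20) or miR-124a 2 (-0.08) was left out.

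Control 3 thus set 5 members apart within its own group. It lay at least 2-fold above both other controls for Afp, Alb, Ahsg, Fgb and Fgg, 5 of 9 members, against 0.75% of all tested genes. Alb, Fgb and Fgg passed the filter only through the control group, and the 2-fold description was chosen after values were seen. Nothing is therefore read from this count. The excess of control 3 over the geometric mean of controls 1 and 2 was 7.46-fold for Afp and 5.81-fold for Alb. It was 4.82-fold for Fgg, 3.16-fold for Ahsg and 2.74-fold for Fgb. The same ratio was 0.870 for Ttr, 1.08 for Rbp4, 0.921 for Trf and 0.530 for Amn. Among 30 tested genes for other plasma proteins of the liver, 1 met that description, Kng1 (kininogen), at 4.46-fold. On the treated side, miR-124a 2 lay at least 2-fold below both others of its group for Afp and Fgb (0.697% of all tested genes). Of the 30 other liver plasma proteins, 3 met the same description there: F10, Ambp and Itih2. For 20 of the 30, miR-124a 2 was the lowest treated tumour, against 34.7% of all tested genes. That tumour lay at least 2-fold above both others of its group for Ttr (0.231%), at 3.05-fold. In miR-124a 3, Fgg was at least 2-fold above the others of the group (1.05%), though it was not well above background in any treated tumour. Fgb in miR-124a 2 read 1.17, under the dimmest signal called well above background there (2.54). Both of these ratios thus involve signals that were not well above background: Fgg in all 3 treated tumours, and Fgb in miR-124a 2. Of the 12 such descriptions, 6 tumours in both directions, the other 8 held no member.

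**Figure D3:**
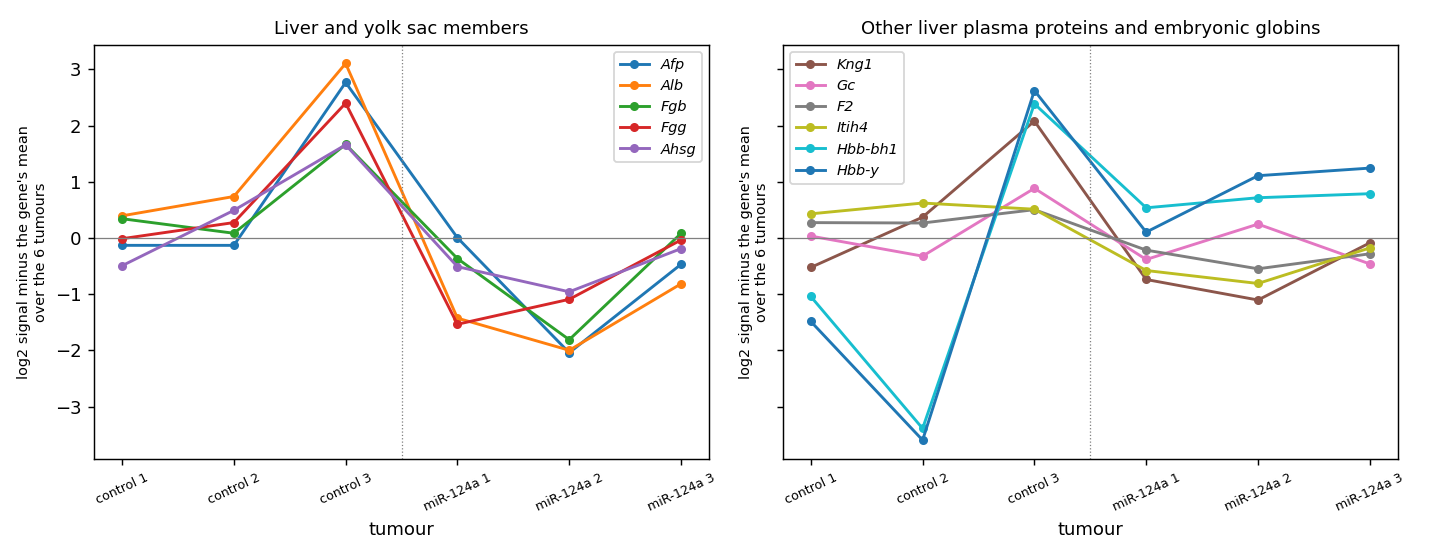
Log2 signal minus the gene's own mean over the 6 tumours, by tumour, for 5 members (left) and for 4 other liver plasma protein genes and 2 embryonic globins (right), with control and miR-124a tumours divided by the dotted line. The 5 members and Kng1 peak in control 3, the globins peak there too but are lowest in control 2, and F2 and Itih4 are lower in all 3 treated tumours.

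Embryonic globins, made by the primitive red cells of the yolk sac, were also high in control 3. Hbb-y read 2.36, 0.545 and 40.7 in controls 1 to 3 and 7.10, 14.2 and 15.6 in treated tumours. Hbb-bh1 read 2.93, 0.575 and 31.5 in controls and 8.74, 9.90 and 10.4 in treated tumours. Of the 7 primitive erythroid markers 6 were tested, and the summed scaled intensity was 76.5 to 322 in controls and 89.3 to 649 in treated tumours. Klf1, an erythroid transcription factor, was the 1 that rose (log2 difference 1.1, limma adjusted p 0.0210). It was not above background in any control, which makes it at least 1.61-fold higher, and it entered the test only through the miR-124a group. With normexp background correction and quantile scaling the Klf1 difference was 0.13 (limma adjusted p 0.170). Nothing is therefore read from this call. The globins were lowest in control 2 and not in the treated tumours, and their part in the members' values was not tested.

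The genes whose pattern over the 6 tumours was nearest to Afp, by the root mean square difference of centred log2 values, were Crygd (0.549), Fgb (0.574), Tpra1 (0.576), Cryga (0.591) and Kng1 (0.640), beside a median of 1.42 over all tested genes. Nearest to Alb were Fgg (0.622), Krt25 (0.660), Tpra1 (0.715), Crygd (0.725) and Gm41515 (0.738), beside a median of 1.69. Crygd and Cryga encode lens crystallins and Krt25 a hair follicle keratin, and all of these genes were highest in control 3. Crygd read 38.2 in control 3 and 2.24 to 4.46 elsewhere. These are likenesses over 6 points of which 1 dominates.

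The genes nearest to Ttr by the same measure were Slc4a5 (0.133), a bicarbonate transporter, Kcne2 (0.174), a potassium channel subunit, and Wfikkn2 (0.175), followed by Gm4633 (0.201) and Prss35 (0.227), beside a median of 0.577 over all tested genes. Slc4a5 and Kcne2 are known from the choroid plexus. Kcne2 read 50.5 in miR-124a 2 and 12.9 to 26.6 elsewhere, and Slc4a5 read 22.6 there and 8.71 to 12.7 elsewhere. All 10 listed choroid plexus markers were tested, and miR-124a 2 was the highest treated tumour for 6 of them, against 37.7% of all tested genes. Their summed scaled intensity was 2161 to 2444 in controls and 2012, 2504 and 2131 in treated tumours 1 to 3. Sostdc1, a secreted BMP antagonist, was the 1 of the 10 that passed: it fell by 1.53 on the log2 scale (limma adjusted p 0.0412). Of the 8 markers of the retinal pigment epithelium, the other tissue of the central nervous system rich in Ttr, 4 were tested. Of these, 0 passed limma at the adjusted or the unadjusted threshold, and miR-124a 2 was the highest treated tumour for all 4. Rpe65, Lrat and Tyr were not above background on any array. That tumour was also the highest treated one for 4 of 7 tested oligodendrocyte markers, 4 of 6 islet markers and 0 of 4 intestinal markers. The part of any of these tissues in the Ttr values was not tested.

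**Figure D4:**
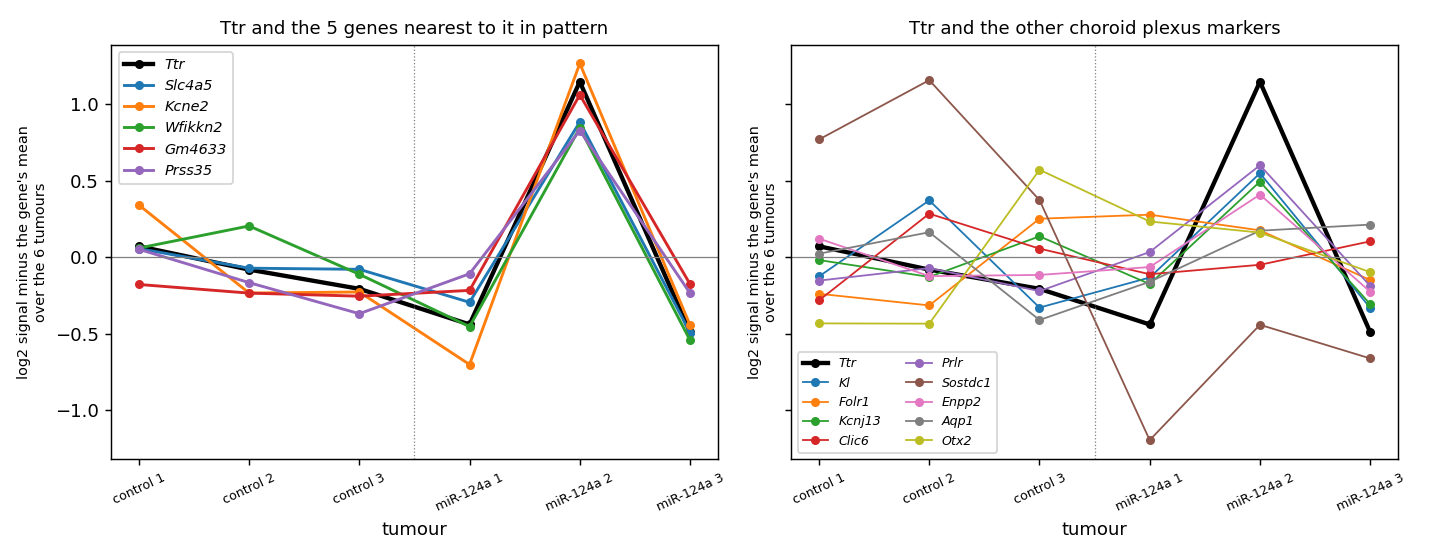
Log2 signal minus the gene's own mean over the 6 tumours, by tumour, for Ttr (black) with the 5 genes nearest to it in pattern (left) and with 9 other choroid plexus markers (right). Ttr and its 5 nearest genes peak in miR-124a 2, Kl, Kcnj13, Prlr and Enpp2 peak there to a lesser extent, and Sostdc1 is lower in all treated tumours.

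Receptors, carriers and partners of the members were measured as 15 genes, of which 13 were tested and 0 passed limma (3 at an unadjusted p under 0.05). The nearest was Tfr2, the liver's sensor of iron-loaded transferrin, at 42.2 to 52.1 in controls and 65.9 to 94.1 in treated tumours, without overlap (log2 difference 0.70, adjusted p 0.0741). Tfrc, the receptor through which cells take up transferrin, was at -0.38 (adjusted p 0.134). Cubn, which encodes the cubilin that amnionless escorts, was at 0.45 (adjusted p 0.370), and its co-receptor Lrp2 at 0.47 (adjusted p 0.530). Stra6, the cell surface receptor for RBP4, was at 0.16 (adjusted p 0.597). Hamp, the iron hormone hepcidin, was not above background on any array.

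Of 50 other plasma proteins made by the liver, 30 were tested, 2 fell and 0 rose, with a median difference of -0.36. At limma's unadjusted p under 0.05 there were 14 of 30, against 27.3% of all tested genes. Among these, Itih3, Cpb2 and Mbl2 were higher with miR-124a. Lower without overlap were 9 of 30, against 20.6%, and higher without overlap 2, against 15.0%. Proc, Apoh and Hpx, lower genes counted here, passed the filter only through the control group, so nothing is read from these counts. Itih4, an inter-alpha-trypsin inhibitor heavy chain, read 7.02 to 8.02 in controls and 2.97 to 4.61 in treated tumours and fell by 1.04 on the log2 scale (limma adjusted p 0.0377). F2, prothrombin, the zymogen of the enzyme that cleaves fibrinogen, read 23.7 to 27.9 in controls and 13.4 to 16.9 in treated tumours and fell by 0.70 (adjusted p 0.0469). Both calls were narrow: Itih4 passed in 5 and F2 in 7 of 16 alternatives, and leaving out 1 tumour at a time left them in 1 and 0 of 6. With normexp background correction and quantile scaling Itih4 was at -0.23 (limma adjusted p 0.0643) and F2 at -0.40 (adjusted p 0.0310). Hpx, the heme carrier hemopexin, was at -0.95 (adjusted p 0.0742), and Mbl2, a lectin of innate immunity, at 0.60 (adjusted p 0.0741). A further 12 of the 50 were not above background on any array, among them F9, F11, F12 and Serpina3k. The acute phase list of 11 genes had 7 tested and 0 passed limma (1 at an unadjusted p under 0.05), with Hp, haptoglobin, at -0.89 (adjusted p 0.0860).

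Transcription factors of liver and visceral endoderm were 18 genes, of which 14 were tested and 1 passed. Hnf4a, a nuclear receptor central to hepatocyte and visceral endoderm identity, read 12.4, 14.8 and 18.9 in controls and 5.82, 4.26 and 7.65 in treated tumours, and fell by 1.40 on the log2 scale (limma adjusted p 0.0453). It passed in 7 of 16 alternatives and in 1 of 6 that left out 1 tumour. With normexp background correction and quantile scaling the Hnf4a difference was -0.45 (limma adjusted p 0.0263). Cebpa was at -0.58 (adjusted p 0.0991) and Nr1h4, the bile acid receptor, at -0.74 (adjusted p 0.122). Foxa1 at 0.10 (adjusted p 0.908) and Foxa2 at 0.44 (adjusted p 0.624) had overlapping groups.

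The label of fetal liver and yolk sac was checked against other markers. Of 24 cellular genes of hepatoblasts and hepatocytes, 13 were tested and 7 were not above background on any array, among them the urea cycle enzymes Cps1 and Otc, and G6pc. Dlk1, a hepatoblast surface protein that many other fetal tissues also make, was the 1 that passed, and it fell by 1.07 (limma adjusted p 0.0427). The markers listed for visceral endoderm, which include the apolipoprotein genes Apob and Apom, were all above background on at least 1 array. Of these 14, 13 were tested and 1 passed: Ihh, a signal of visceral and gut endoderm, fell by 1.2 (adjusted p 0.0304). Gata4, a factor of visceral endoderm, heart and gut, was above background in every control and no treated tumour and was at least 2.37-fold lower, with an adjusted p of 0.0949. It entered the test only through the control group, so nothing is read from its direction. All 10 parietal endoderm markers were tested and 0 passed limma (4 at an unadjusted p under 0.05). Several defining enzymes of the hepatocyte were thus at background, and the genes are described by name rather than as a liver.

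Markers of other tissues that make members were set beside them. The 10 markers of the intestinal lining, which makes Amn, had 4 tested, of which Fabp2 fell by 2.04 (limma adjusted p 0.0170) and Lgals4 by 1.29 (adjusted p 0.0271). Their summed scaled intensity was 175 to 210.0 in controls and 71.9 to 99.3 in treated tumours, while Cdx2, Cdh17, Reg4, Alpi and Sis were not above background on any array. Adipocyte markers summed to 397 to 618 in controls and 216 to 271 in treated tumours, with 0 of 6 tested genes past limma's threshold (2 at an unadjusted p under 0.05) and Fabp4 at -1.01 (adjusted p 0.0731). Oligodendrocyte markers summed to 2674 to 3329 in controls and 2913 to 3241 in treated tumours, with 0 of 7 past it, adjusted or unadjusted, and Mbp at 0.28 (adjusted p 0.246). Of 7 kidney proximal tubule markers 1 was tested and it did not pass, and of 7 pancreatic islet markers 6 were tested and 0 passed limma (3 at an unadjusted p under 0.05). The part of these tissues in the members' values was not tested.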

How the data were processed

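The array signals were made by the authors: Agilent Feature Extraction (version 11.5.1.1 per the submitters' processing notes and the file headers) gave a processed intensity per spot, corrected for background and spatial trend, from 1-colour Cy3 arrays of total RNA. The authors' deposited value table holds log2 values; set against the scanner files each column equalled log2 of that array's processed intensity up to a constant (SD of the difference 0.0029), with column medians from -3.07 to -2.97. The sources used here do not say how it was scaled.

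Here log2 processed intensity was taken minus that of the array's 75th percentile over non-control spots. Spots of a probe were averaged, and 22 of 56605 probes with outlier flags left out. A probe entered the test if every array of either group showed it well above background, and a gene was its brightest tested probe. Gene names came from the accession in the RefSeq table for GRCm38.p6 (32979 probes), the symbol (10223) or an older symbol (520), and 12861 probes kept the file's name. Groups were compared over all 6 arrays with limma 3.58.1 in R 4.3.3 (lmFit, eBayes, no covariates), Benjamini-Hochberg over 22946 genes, threshold 0.05, and the code was tested on simulated data. Exact permutation of 3 against 3 cannot go below p = 0.1. For a gene not above background in a group, the fold is a bound against the dimmest signals above background.

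The members, the 15 other lists and the tests were chosen with earlier results of these data known. The named genes are all members, the genes of each list past the threshold or among the 4 smallest p-values, chromosomal neighbours, and the 5 genes nearest in pattern to Afp, Alb and Ttr. The motifs, the 2-fold description of a tumour that stands apart, the bounds without 1 tumour and the Foxa, Stra6, Cubn and Lrp2 values were added after values were seen. The labels' replicate numbers do not pair the tumours: the correlation of deviations between tumours of the same number was -0.16, -0.04 and -0.06.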

Additional observations from a re-analysis of the deposited data

How the results depend on the processing

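No member passed limma's adjusted threshold under any of 16 alternatives, at 0 to 4 members with an unadjusted p under 0.05, and of 141 values of members 134 kept their sign. The reversals were Ttr with array weights (-0.0716), without miR-124a 2 (-0.39) and without both control 3 and miR-124a 2 (-0.46, chosen after seeing the data), Rbp4 without control 2 (-0.0427), and Amn without control 3 (-0.20), miR-124a 2 (-0.08) or both (-0.39). Leaving out 1 tumour gave -0.39 to 0.43 for Ttr, -0.0427 to 0.22 for Rbp4 and -0.20 to 0.37 for Amn. The members' median of -1.10 was -0.27 with normexp and quantile scaling, -0.0702 when only the 6 members above background on all 6 arrays were kept, -0.36 without both tumours, and -1.57 to -0.55 leaving out 1 tumour. Of other liver plasma proteins, 2 passed (F2 and Itih4, lower); 1 passed with normexp, the mean of probes or array weights (F2), 1 with no filter (Afm, lower), 0 without both tumours, and 0 to 2 leaving out 1 tumour: Mbl2, higher, without control 3, and Itih4 and Hp, lower, without miR-124a 3. Of all genes, 742 passed (112 higher, 630 lower); the count was 1549 with normexp (581 higher, 968 lower), 96 with no filter, 1723 with a variance trend and robust estimation, 6 without both tumours, and 0 to 375 leaving out 1 tumour, with 0 without control 2 or miR-124a 2. With the replicate number as a block, which the pairing check did not bear out, 0 genes (4952 unadjusted), 0 members (4 unadjusted) and 0 other liver plasma proteins (14 unadjusted) passed in limma. The calls for Dlk1, Hnf4a, Ihh, Sostdc1, Fabp2, Lgals4 and Klf1 passed in 7 to 10 alternatives and in 0 to 2 of 6 that left out 1 tumour. With normexp and quantile scaling their differences were smaller in size: -0.92 for Dlk1, -0.45 for Hnf4a, -0.66 for Ihh and -1.33 for Sostdc1. Under the same setting Fabp2 was at -0.66, Lgals4 at -1.08 and Klf1 at 0.13. The cause of these moves was not tested. Signals of Alb, Fgb and Fgg in treated tumours lay near the detection limit, which bounds what their folds can show, and 3 tumours per group limit the precision.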
